A study of Mus musculus with 6 samples.

Results

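The transcripts described here encode the machinery that brings proteins into mitochondria, together with the Chchd proteins, measured in mouse oocytes after treatment with AMH (anti-Müllerian hormone) and without it. Members were the protein-coding genes of the count table named Timm, Tomm or Chchd followed by a digit, 33 of 54532 genes in all. That rule uses no measured value, but it was set with earlier results of these data known. The 6 libraries, written below as AMH 1, 2 and 3 and controls 1, 2 and 3, hold polyadenylated RNA of C57BL/6J oocytes labelled with an age of 6 to 7 weeks. AMH mice had received 300 ng of recombinant mouse AMH, made in E. coli, by daily intraperitoneal injection that began at 21 days of age. Control mice are of the same strain and age, and the labels do not say whether they were injected. Nor do they say how many oocytes or animals went into a library, so what the p-values weigh is the spread among 6 libraries, and that spread may be technical.

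Nearly all mitochondrial proteins are made in the cytosol and must be imported. The TOM complex of the outer membrane recognises and admits them. Proteins with a cleavable presequence then pass through the TIM23 complex of the inner membrane, carrier proteins are inserted by the TIM22 complex, and small Tim chaperones escort hydrophobic proteins across the space between the membranes. Small cysteine-rich proteins of that space, which include the small Tims and most Chchd proteins, are trapped there by the oxidoreductase Chchd4, known in yeast as Mia40. Oocytes hold a large maternal stock of mitochondria, which the early embryo uses.

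Most of these genes had higher mean values in AMH libraries and a small set had lower ones, but no single gene passed the test. The lower set included Timm23, a core subunit of the inner membrane channel, whose groups overlapped. Of 33 members 31 passed the filter on low counts, each with at least 20 counts in every library, and Tomm6 and Tomm20l did not pass. Library totals were 66392859 to 72109080 counts. edgeR's quasi-likelihood test called 0 of the 31 at an adjusted p under 0.05, and 0 of all 18868 genes tested (0%), the lowest adjusted p being 0.116. On CPM, the count per library size scaled by TMM, every AMH library lay above every control for 21 of 31 members (67.7%), as it did for 26.9% of all genes tested, and below every control for 3 members, Timm8a2, Tomm34 and Timm21 (9.68%), against 23.3% of all genes. At an unadjusted p under 0.05 the same test had 19 members higher, against 20.2% of all genes, and 0 lower, against 17.3%. The median log2 fold change, AMH over control, was 1.22 over the 31 members and -0.01 over all genes tested. With library size alone the medians were 1.50 for members and 0.26 for all genes, with upper-quartile scaling 1.04 and -0.23, and with scaling to the summed counts of 20 oocyte markers 1.98 and 0.75. Positive log2 fold changes numbered 25 and negative ones 6 with TMM, and 27 and 4 with library size alone. They numbered 24 and 7 with the upper quartile and 31 and 0 with the oocyte list. Of all 18868 genes tested, 9374 (49.7%) were positive with TMM and 11067 with library size alone. With the upper quartile 8336 of them were positive, and with the oocyte list 16494. Since signs depend on the scaling, directions below are those of TMM.

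AMH 3 and control 3 were more alike than any other pair of libraries (a chi-square of 55.9 per degree of freedom over their counts), and the calls turned on them and on the tool. DESeq2 called 18 members higher and 0 lower, against 16.3% of all genes higher and 7.78% lower. Without control 3 edgeR called 20 members higher and 1, Timm8a2, lower, against 26.8% and 11.2% of all genes. Without AMH 3 it called Tomm7 and Chchd7 higher and Tomm34 lower, against 1.45% and 6.73%. With both left out it called 21 members higher and 2, Timm8a2 and Tomm34, lower, against 29.4% and 21.6%. Leaving out any 1 of the other libraries gave 0 member calls.

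Markers checked the label and differed between libraries. Oocyte genes were abundant throughout: Gdf9, an oocyte growth factor, had 5542, 5457 and 10185 CPM in AMH 1, 2 and 3, against 11308, 11913 and 10041 CPM in controls 1, 2 and 3. Summed oocyte marker CPM over 20 of 20 listed genes was 16384 to 27240.2 CPM in AMH libraries and 27999 to 37189 CPM in controls. By TMM the log2 fold change was below 0 for each of the 20, at a median of -0.83. For 15 of them every AMH library lay below every control (against 23.3% of all genes), and for 0 above (against 26.9%). Gdf9 was not 1 of those 15, since AMH 3 lay above control 3. At an unadjusted p under 0.05 edgeR had 18 of the 20 lower (against 17.3%), and it called 0. Cumulus and granulosa markers, 20 of 20 genes, summed to 4450.1, 4497 and 3437 CPM in AMH 1, 2 and 3, against 1108, 366 and 3582 CPM in controls 1, 2 and 3, where control 3 had more than AMH 3. Of 19 tested genes on that list 16 had a positive log2 fold change and 3 a negative one, with a median of 1.23. For 5 of the 19 every AMH library was above every control (against 26.9% of all genes). For 1, Cyp19a1, named after its values were seen, every AMH library was below every control (against 23.3%). Foxl2, a granulosa transcription factor and 1 of those 5, had 7.62, 4.42 and 6.97 CPM in AMH 1, 2 and 3. In controls 1, 2 and 3 Foxl2 had 1.52, 0.421 and 3.49 CPM. For oviduct and ciliated epithelium, 10 of 13 tested genes had a positive log2 fold change, and the median over the 13 was 1.77. Of the 13, 7 were higher in every AMH library than in every control (against 26.9% of all genes). Another 2 were lower in every AMH library than in every control (against 23.3%). Foxj1, a regulator of motile cilia, had 5.43, 2.54 and 1.04 CPM in AMH 1, 2 and 3, against 0.202, 0.0623 and 0.167 CPM in controls 1, 2 and 3. The sum over 14 listed genes was 348 to 850.01 CPM in AMH libraries and 339.9 to 378 CPM in controls, and in controls much of it came from Ccno, named after its values were seen, with 80.03, 93.5 and 141 CPM in AMH 1, 2 and 3, against 194, 268 and 142 CPM in controls 1, 2 and 3. For blood and macrophages 11 of 12 genes were positive, with a median of 2.98 and sums of 99.5 to 424 CPM in AMH libraries and 6.11 to 34.4 CPM in controls. For endothelium and stroma 4 of 11 were positive, with a median of -0.47 and sums of 146 to 199 CPM in AMH libraries and 231 to 257 CPM in controls. No listed marker was at 0 in all 6 libraries. Fewer cells of a type and less RNA per cell cannot be told apart in such bulk samples, and the part of other cells in the values below was not tested.

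**Figure D1:**
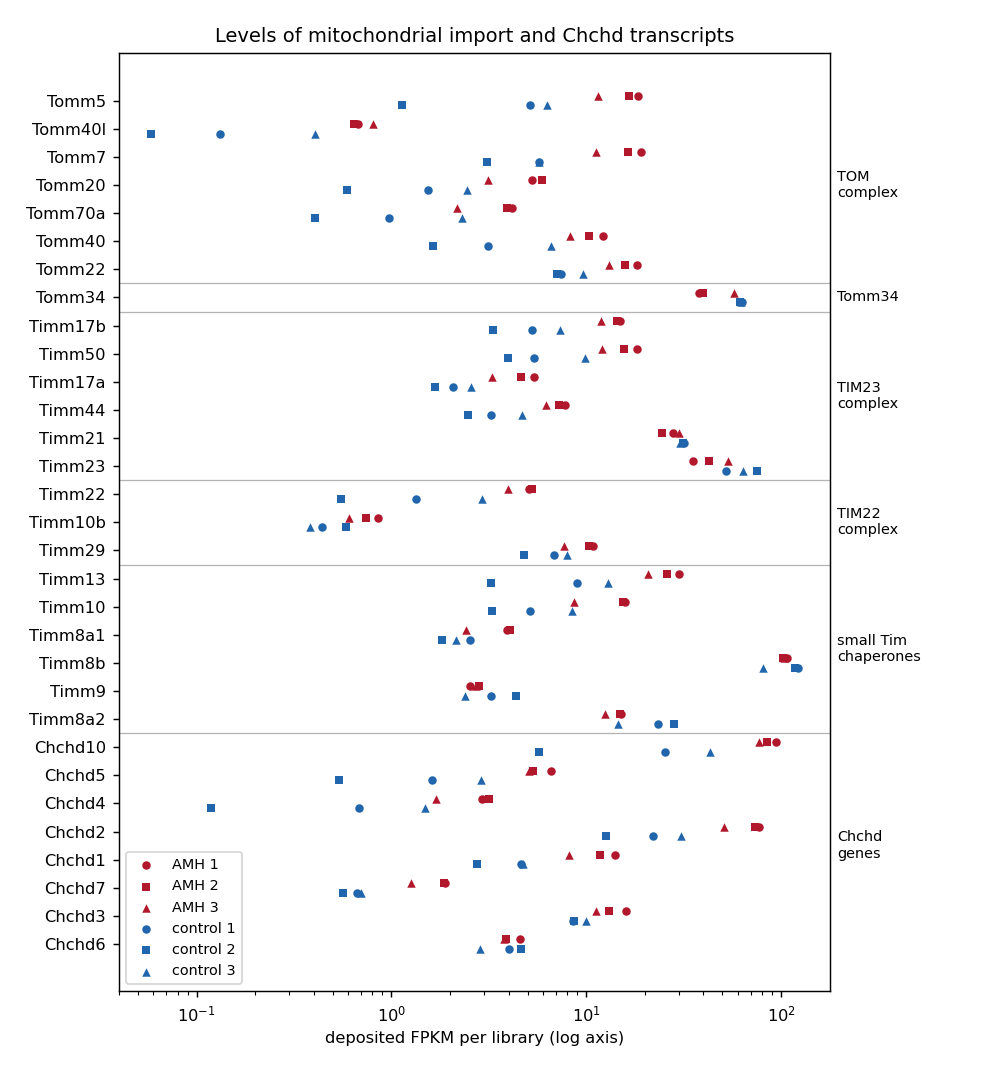
Deposited FPKM of the 31 tested members in each library on a log axis, by role, with AMH libraries in red and controls in blue. Tomm5 sits between 11.5 and 18.6 FPKM in the 3 AMH libraries and between 1.14 and 6.26 FPKM in the 3 controls, while Tomm34 lies lower in every AMH library than in every control.

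The median log2 fold change of the 7 tested TOM genes was 1.62. All 7 were positive, and for 6 of them no control reached any AMH library (against 26.9% of all genes). Their summed level was 195, 179 and 130.3 CPM in AMH 1, 2 and 3, against 56.9, 31.9 and 99.6 CPM in controls 1, 2 and 3. Tomm5, a small subunit that stabilises the complex (chromosome 4, 45105208 to 45108114), had 16.3, 14.6 and 10.7 CPM in AMH 1, 2 and 3, against 4.62, 1.03 and 5.75 CPM in controls 1, 2 and 3. All 3 AMH libraries were above all controls, and control 2 was lowest. Its log2 fold change of 1.86 (SE 0.61) was the largest of the tested members, with an edgeR adjusted p of 0.116. Tomm7, another small subunit (chromosome 5, 23838944 to 23844161), had the smallest p of the members, with 21.7, 18.7 and 13.5 CPM in AMH 1, 2 and 3, against 6.64, 3.62 and 6.84 CPM in controls 1, 2 and 3. The groups did not overlap, and AMH 1 and 2 were highest. The means were 17.96 ± 4.14 CPM in AMH libraries and 5.70 ± 1.81 CPM in controls (SD, n = 3 each), a log2 fold change of 1.66 (SE 0.34) (edgeR adjusted p = 0.116).

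Tomm40, the channel through which nearly every precursor enters, had 55.6, 47.5 and 39.8 CPM in AMH 1, 2 and 3, against 14.6, 7.67 and 31.5 CPM in controls 1, 2 and 3, with control 3 closest to the AMH libraries. Tomm22, the central receptor, had 30.6, 26.4 and 22.9 CPM in AMH 1, 2 and 3, against 12.7, 12.1 and 16.7 CPM in controls 1, 2 and 3, with no overlap and the smallest log2 fold change of the TOM genes, 0.95 (SE 0.23). Tomm20, the presequence receptor, had 26.1, 29.5 and 16.4 CPM in AMH 1, 2 and 3, against 7.80, 3.01 and 12.7 CPM in controls 1, 2 and 3, with AMH 3 and control 3 nearest each other. Tomm70a, the receptor for carrier precursors, was the TOM gene whose groups overlapped, since AMH 3 had 22.6 CPM and control 3 had 23.8 CPM. Its log2 fold change was 1.44 (SE 0.62), and 0.29 with summed cumulus marker CPM, taken as log2, as a covariate. Tomm40l, a paralogue of Tomm40, was at 3.35 to 4.39 CPM in AMH libraries and 0.312 to 2.21 CPM in controls, a log2 fold change of 1.80 (SE 0.69) (edgeR adjusted p = 0.122), and was the lowest tested member per length. Of its exonic bases 64.3% overlap the exons of Nr1i3 on the opposite strand, and the counting's strand setting is not given in the sources used here. Tomm6, the remaining small subunit, had 9, 4 and 4 counts in AMH 1, 2 and 3 and 0 counts in each control, which allows up to 3 counts per control. Exons of the gene Gm21981 on the same strand cover 76.0% of Tomm6, so its reads could be split or dropped, and its level is uncertain. Tomm20l, a paralogue of Tomm20, had 2 to 7 counts in AMH libraries and 3 to 4 counts in controls.

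Tomm34 stood apart from the TOM genes. Its product is a cytosolic co-chaperone that binds Hsp70 and Hsp90 and keeps precursors fit for import. It had 116, 123 and 185 CPM in AMH 1, 2 and 3, against 198, 196 and 201 CPM in controls 1, 2 and 3 (chromosome 2, 164053540 to 164071169). The controls were close together, AMH 1 and 2 were far below them and AMH 3 was near them. The means were 141 ± 37.8 CPM in AMH libraries and 198 ± 2.81 CPM in controls (SD, n = 3 each), with a log2 fold change of -0.49 (SE 0.21) (edgeR adjusted p = 0.137). Per length it was the third most abundant member in controls. With oocyte-list scaling its log2 fold change turned to 0.21.

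The TIM23 complex was split between its subunits. Timm23, a core subunit of the channel (chromosome 14, 32180162 to 32201898), had 64.2, 77.6 and 102 CPM in AMH 1, 2 and 3, against 96.5, 139.7 and 120.2 CPM in controls 1, 2 and 3. AMH 1 and 2 were below every control, and AMH 3 lay above control 1. Its log2 fold change was -0.55 (SE 0.23) (edgeR adjusted p = 0.133), and 0.17 with oocyte-list scaling. Timm21, which links the complex to TOM and to the respiratory chain, had 37.3, 32.7 and 42.1 CPM in AMH 1, 2 and 3, against 43.1, 43.3 and 42.2 CPM in controls 1, 2 and 3. AMH 3 and control 3 were almost equal there, and the log2 fold change of -0.20 (SE 0.17) (edgeR adjusted p = 0.377) turned positive with library size alone (0.07) and with oocyte-list scaling (0.54).

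The other 4 of the 6 TIM23 genes had higher values in every AMH library than in every control (against 26.9% of all genes). Timm17b, a partner of Timm23 in the channel, had 38.4, 37.5 and 32.6 CPM in AMH 1, 2 and 3, against 13.9, 8.87 and 19.7 CPM in controls 1, 2 and 3, a log2 fold change of 1.35 (SE 0.31). Its paralogue Timm17a had 43.1, 36.98 and 27.4 CPM in AMH 1, 2 and 3, against 16.8, 13.8 and 21.5 CPM in controls 1, 2 and 3, with all AMH libraries again above all controls. Timm50, the receptor that takes precursors over from TOM, had 49.3, 42.5 and 34.3 CPM in AMH 1, 2 and 3, against 14.9, 11.1 and 28.1 CPM in controls 1, 2 and 3, where control 3 was the highest control and below AMH 3. Timm44, which tethers the import motor to the channel, had 28.8, 27.1 and 24.3 CPM in AMH 1, 2 and 3, against 12.4, 9.45 and 18.2 CPM in controls 1, 2 and 3. Summed over the 6 genes the level was 261, 254 and 263 CPM in AMH 1, 2 and 3, against 198, 226 and 249.996 CPM in controls 1, 2 and 3, a smaller contrast than in the TOM genes, and Timm23 was the most abundant of the 6.

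Genes of the TIM22 complex had positive log2 fold changes in 3 of 3 cases, between 0.54 and 1.55. Timm22, its channel subunit, had 16.4, 17.05 and 13.4 CPM in AMH 1, 2 and 3, against 4.42, 1.82 and 9.78 CPM in controls 1, 2 and 3, with no overlap. Timm29, which holds the complex together, had 34.8, 33.5 and 26.01 CPM in AMH 1, 2 and 3, against 22.3, 15.8 and 26.9 CPM in controls 1, 2 and 3, and control 3 was above AMH 3. Timm10b, a small Tim bound to the complex, was at 2.32 to 3.11 CPM in AMH libraries and 1.44 to 2.18 CPM in controls, and 10.5% of its exonic bases are shared with Gm45799 on the same strand.

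Small Tim chaperones had log2 fold changes of both signs, and members that form a complex together differed. Timm9 and Timm10 assemble into a hexamer that carries hydrophobic precursors, and Timm8 and Timm13 form another. Timm10 (chromosome 2, 84826997 to 84830213) had 13.1, 12.7 and 7.48 CPM in AMH 1, 2 and 3, against 4.31, 2.79 and 7.28 CPM in controls 1, 2 and 3, a log2 fold change of 1.21 (SE 0.43). AMH 3 was only just above control 3. Timm9 (chromosome 12, 71123173 to 71136684) had 10.99, 12.2 and 12.5 CPM in AMH 1, 2 and 3, against 14.4, 19.5 and 10.8 CPM in controls 1, 2 and 3, a log2 fold change of -0.33 (SE 0.27) with overlapping groups (edgeR adjusted p = 0.362), which turned to 0.47 with oocyte-list scaling and 0.19 with the cumulus covariate. Timm13 had 41.4, 36.4 and 30.1 CPM in AMH 1, 2 and 3, against 12.8, 4.61 and 18.7 CPM in controls 1, 2 and 3. All AMH libraries exceeded all controls, and control 2 was far below its fellows.

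The 3 Timm8 genes each behaved differently. Timm8b (chromosome 9, 50603910 to 50605320), the most abundant member per length, had 56.6, 53.96 and 57.4 CPM in AMH 1, 2 and 3, against 65.1, 63.8 and 44.4 CPM in controls 1, 2 and 3. Control 3 was the lowest library and the other controls the highest, so the groups overlapped, with a log2 fold change of -0.05 (SE 0.20) (edgeR adjusted p = 0.859). That sign turned with library size alone (0.23), oocyte-list scaling (0.74) and the cumulus covariate (0.27). Of its exonic bases 15.6% overlap Nkapd1 on the opposite strand. Timm8a2 (chromosome 14, 122034674 to 122038420), a mouse paralogue of Timm8a1, had 13.9, 13.9 and 12.2 CPM in AMH 1, 2 and 3, against 22.01, 26.9 and 14.1 CPM in controls 1, 2 and 3, every AMH library below every control and AMH 3 close to control 3. Its log2 fold change was -0.66 (SE 0.28) (edgeR adjusted p = 0.137), the most negative of the tested members, and 0.17 with oocyte-list scaling. Timm8a1, the counterpart of the human deafness-dystonia gene TIMM8A, had 5.62, 5.84 and 3.65 CPM in AMH 1, 2 and 3, against 3.72, 2.70 and 3.22 CPM in controls 1, 2 and 3, with AMH 3 just below control 1.

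Log2 fold changes were positive for all 8 Chchd genes, at a median of 1.53. For 7 of them every AMH library was above every control (against 26.9% of all genes). Chchd2 and Chchd10 are paralogues of the intermembrane space whose human counterparts are mutated in neurodegenerative and muscle disease. Chchd2 (chromosome 5, 129881156 to 129887470) had 178, 169 and 123 CPM in AMH 1, 2 and 3, against 51.4, 29.9 and 73.9 CPM in controls 1, 2 and 3. Its means were 157 ± 29.5 CPM in AMH libraries and 51.7 ± 22.01 CPM in controls (SD, n = 3 each), a log2 fold change of 1.60 (SE 0.35) (edgeR adjusted p = 0.116). Chchd10 (chromosome 10, 75933130 to 75937747) had 150.3, 135 and 129.6 CPM in AMH 1, 2 and 3, against 41.5, 9.37 and 72.2 CPM in controls 1, 2 and 3. The AMH libraries were close together and the controls were spread, control 2 lowest and control 3 highest, with a log2 fold change of 1.75 (SE 0.65) (edgeR adjusted p = 0.119). Exons of Mmp11 on the opposite strand overlap 9.84% of Chchd10.

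Chchd4, the oxidoreductase that traps the small Tims and most Chchd proteins, was low in oocytes, with 15.2, 16.8 and 9.34 CPM in AMH 1, 2 and 3, against 3.68, 0.639 and 8.22 CPM in controls 1, 2 and 3. Control 2 was near 0 and control 3 close to AMH 3, and the log2 fold change of 1.72 (SE 0.81) became 0.22 with the cumulus covariate. Chchd7, a relative of the yeast assembly protein Cox23, had 7.71, 7.68 and 5.45 CPM in AMH 1, 2 and 3, against 2.79, 2.40 and 3.003 CPM in controls 1, 2 and 3. It had the second smallest p of the members, with groups well apart and a log2 fold change of 1.35 (SE 0.28) (edgeR adjusted p = 0.116), and kept 1.13 with the covariate. Chchd1, a subunit of the small mitochondrial ribosome, had 12.98, 10.9 and 7.89 CPM in AMH 1, 2 and 3, against 4.36, 2.60 and 4.58 CPM in controls 1, 2 and 3. Chchd5 had 11.5, 9.34 and 9.32 CPM in AMH 1, 2 and 3, against 2.89, 0.966 and 5.28 CPM in controls 1, 2 and 3, a log2 fold change of 1.72 (SE 0.58) (edgeR adjusted p = 0.117) in which control 3 was again the highest control.

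Chchd3 and Chchd6 are subunits of MICOS, the complex that shapes cristae, and had the smallest log2 fold changes of the Chchd genes. Chchd3 had 46.9, 38.7 and 34.9 CPM in AMH 1, 2 and 3, against 25.8, 26.1 and 30.6 CPM in controls 1, 2 and 3, every AMH library above every control by a narrow margin, with a log2 fold change of 0.55 (SE 0.19). Chchd6 had 11.8, 9.90 and 10.2 CPM in AMH 1, 2 and 3, against 10.5, 12.2 and 7.64 CPM in controls 1, 2 and 3. Its groups overlapped, with a log2 fold change of 0.07 (SE 0.26) (edgeR adjusted p = 0.850) that was negative with upper-quartile scaling (-0.18).

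**Figure D2:**
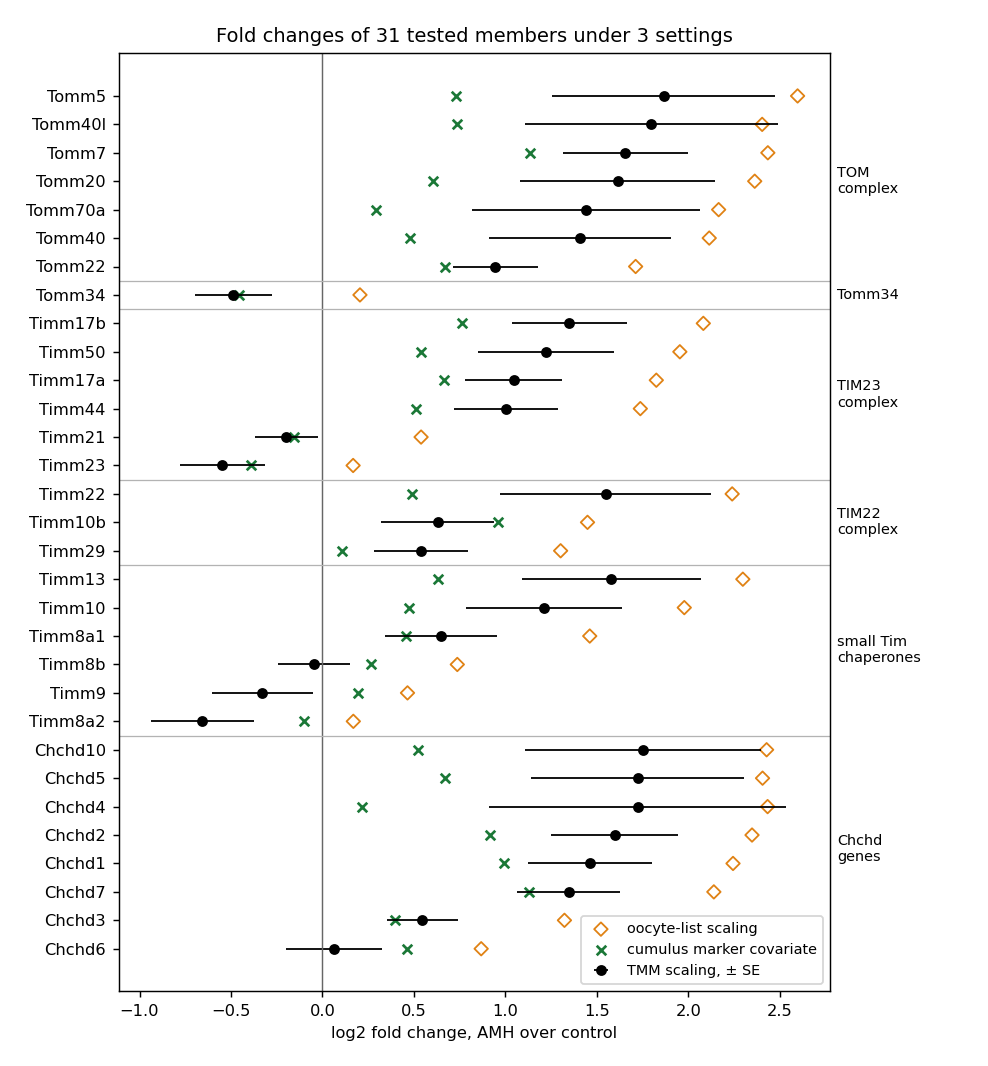
Log2 fold change, AMH over control, of each tested member with TMM scaling (black, bars are ± SE), with oocyte-list scaling (open orange diamonds) and with the cumulus marker covariate (green crosses), by role. With TMM 25 members are positive and 6 negative (49.7% of all genes tested are positive). With oocyte-list scaling all 31 are positive, as are 16494 of all 18868 genes tested. With the covariate the median is 0.51.

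The ratios of 2 transcripts within a library do not depend on scaling. They compare members that share a complex or are paralogues, apart from Tomm70a over Tomm34. Of 11 pairs, chosen after the values were seen and given without a test, 5 had no overlap, with every AMH library above every control, and 6 overlapped. Each of those 5 sets a member with a positive log2 fold change by TMM over one with a negative. They therefore largely restate the fold changes above, and the share over other pairs of genes was not computed. The Timm8a1 over Timm8a2 ratio of FPKM was 0.260, 0.270 and 0.192 in AMH 1, 2 and 3, against 0.109, 0.0644 and 0.146 in controls 1, 2 and 3, with no overlap. Timm13 over Timm8b was 0.277, 0.255 and 0.198 in AMH 1, 2 and 3, against 0.0741, 0.0273 and 0.159 in controls 1, 2 and 3, again without overlap. For Timm50 over Timm23 the ratio was 0.511, 0.364 and 0.224 in AMH 1, 2 and 3, against 0.103, 0.0528 and 0.156 in controls 1, 2 and 3. All AMH libraries were above all controls there, and AMH 3 and control 3 were nearest each other. Timm10 over Timm9 was 6.27, 5.48 and 3.15 in AMH 1, 2 and 3, against 1.57, 0.751 and 3.54 in controls 1, 2 and 3, where control 3 exceeded AMH 3. Tomm70a over Tomm34 was 0.110, 0.0988 and 0.0380 in AMH 1, 2 and 3, against 0.0155, 0.00656 and 0.0368 in controls 1, 2 and 3, with AMH 3 and control 3 almost equal. By contrast Tomm22 over Tomm40, a pair within TOM, was 1.50, 1.52 and 1.58 in AMH 1, 2 and 3, against 2.37, 4.32 and 1.45 in controls 1, 2 and 3, and the AMH libraries and control 3 were alike while controls 1 and 2 were higher. Timm17a over Timm23 had no overlap, with a mean ratio of 0.107 ± 0.0455 in AMH libraries and 0.0341 ± 0.0102 in controls (SD, n = 3 each, as for the next 4). The other pairs overlapped: Timm17b over Timm17a averaged 3.18 ± 0.459 in AMH libraries and 2.46 ± 0.431 in controls, and Tomm40l over Tomm40 0.0714 ± 0.0225 in AMH libraries and 0.0465 ± 0.0136 in controls. Chchd3 over Chchd6 averaged 3.29 ± 0.261 in AMH libraries and 2.49 ± 0.870 in controls, and Chchd10 over Chchd2 1.30 ± 0.196 in AMH libraries and 1.01 ± 0.497 in controls. Gene length enters each ratio, so its absolute size depends on the length the authors used.

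**Figure D3:**
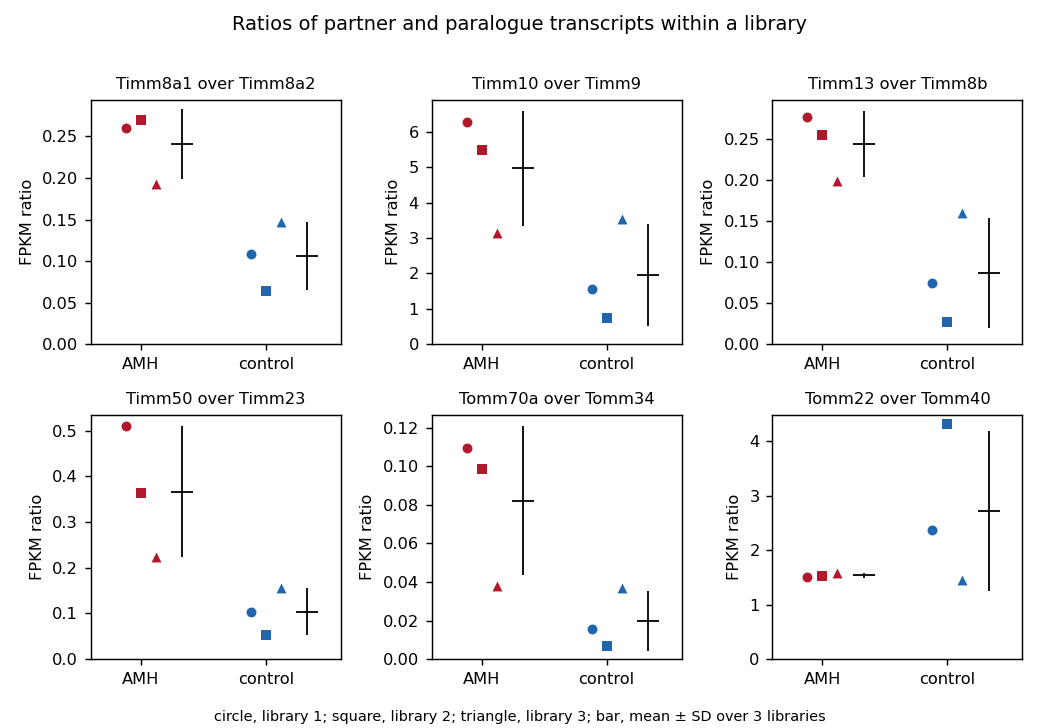
FPKM ratio of 6 pairs of members in each library, AMH left and control right, with black bars for the mean ± SD over 3 libraries. Timm8a1 over Timm8a2, Timm13 over Timm8b, Timm50 over Timm23 and Tomm70a over Tomm34 lie higher in every AMH library than in every control, the last by a margin of 0.0380 in AMH 3 against 0.0368 in control 3.

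The order of the libraries was shared by most members. Of the 21 members with no overlap and higher AMH values, control 2 was the lowest library for 19, control 3 the highest control for 20 and AMH 3 the lowest AMH library for 20. Among the 6 with a negative log2 fold change AMH 3 was instead the highest AMH library for 5. How often other genes have these orders was not counted, so they are not shown to be particular to the members. Among the sums, that of cumulus markers was also lowest in control 2, with control 3 the highest control and AMH 3 the lowest AMH library. The cumulus marker sum was 3437 CPM in AMH 3, against 3582 CPM in control 3, and the oocyte marker sum 27240.2 CPM in AMH 3, against 27999 CPM in control 3. Other markers differed between these libraries: the blood and macrophage sum was 99.5 CPM in AMH 3, against 34.4 CPM in control 3, and within the cumulus sum Foxl2 was higher in AMH 3 and Tnfaip6, named after its values were seen, lower (43.5 CPM in AMH 3, against 164 CPM in control 3). Between them AMH 3 was the higher for 25 of 31 members (80.6%) and for 51.0% of all genes tested. For the 21 members with no overlap and higher AMH values this follows from that pattern, as it does for 26.9% of all genes. The count is therefore not separate from the earlier one. Summed TOM level was 130.3 CPM in AMH 3, against 99.6 CPM in control 3, and summed Chchd level 329.6 CPM in AMH 3, against 205 CPM in control 3. This compares 1 library with 1 library and has no replicate check. With the cumulus covariate the median log2 fold change of the members was 0.51, and 27 of 31 were positive. Of all 18868 genes tested 9386 were positive with it. That covariate was far lower in controls 1 and 2 than in any AMH library, so the fit cannot fully separate it from the group. Much of the marker sum came from Cyp11a1, Inha and Gja1, named after their values were seen.

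**Figure D4:**
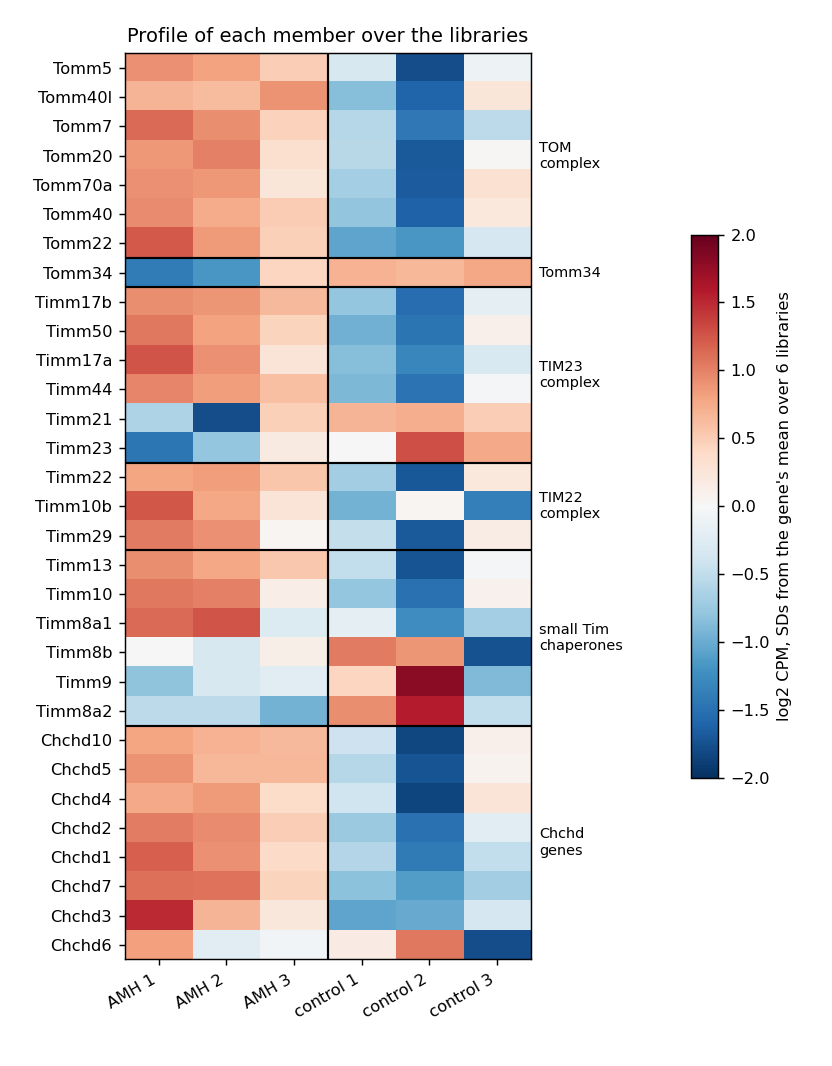
Log2 CPM of each tested member in each library, as SDs from that gene's mean over the 6 libraries, AMH left and control right, by role. Control 2 is the lowest library for 22 of 31 members, while Tomm34, Timm21, Timm23, Timm9, Timm8a2, Timm8b and Chchd6 have their highest value in a control.

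**Figure D5:**
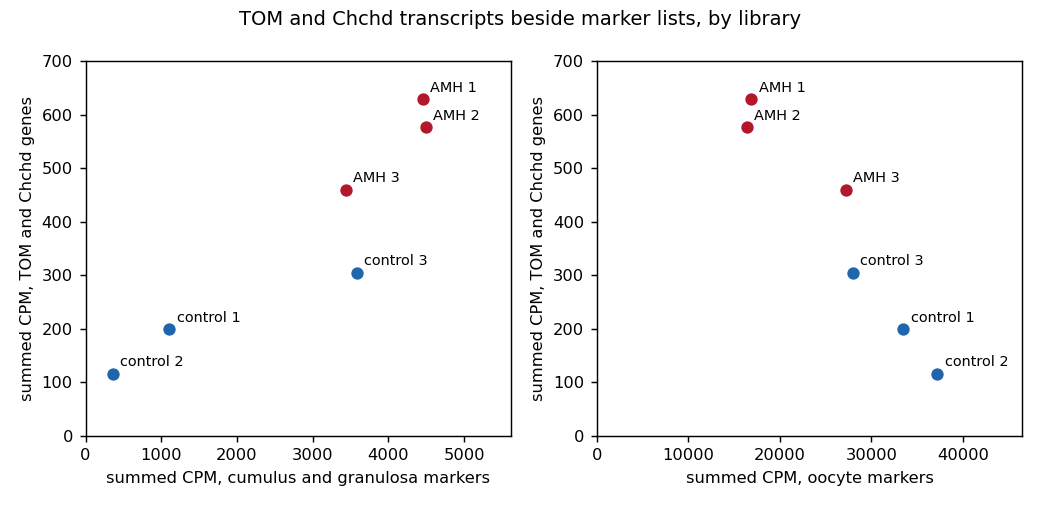
Summed CPM of the TOM and Chchd genes in each library against summed CPM of cumulus and granulosa markers (left panel) and of oocyte markers (right panel), AMH in red and control in blue. AMH 3 has 459.9 CPM and control 3 has 305 CPM of TOM and Chchd transcripts, and control 2 is lowest at 116 CPM.

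Per length, on the deposited FPKM scale, levels spanned a wide range and their order differed between the groups. Timm8b was highest in both, with a mean of 105 FPKM in AMH libraries and 107 FPKM in controls. Chchd10 came next in AMH libraries (85.4 FPKM, and 24.9 FPKM in controls), followed by Chchd2 (67.2 FPKM, and 21.8 FPKM in controls). In controls the next ranks were held by Timm23 (44.002 FPKM in AMH libraries and 63.7 FPKM in controls) and Tomm34 (44.9 FPKM in AMH libraries and 62.5 FPKM in controls), and the control values of these 2 genes overlap. Of the 6 members highest in controls 5 had a negative log2 fold change, out of 6 such members in all, and Chchd10 was the exception. The control values enter both the rank and the fold change, so the 2 are not independent. At the low end Chchd7, Timm10b and Tomm40l were under 2 FPKM in every library, and Tomm6 and Tomm20l were lowest.

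Promoter sequences, 250 bases before to 50 after the start, were found in RefSeq (build GRCm38.p6) for 28 of 33 members. The ETS core CCGGAAGT, searched on both strands, was in the windows of 7 of 28 members, Chchd5, Timm10, Timm10b, Timm23, Timm29, Timm8a2 and Tomm70a, and in those of 4.31% of 27025 genes. Those 27025 are all genes with a promoter window and were not limited to genes tested here, so they are not a matched set. The NRF1 core GCATGCGC was in that of Timm13 alone, against 3.05% of all genes, and the YY1 core AAGATGGCG in that of Timm50 alone, against 1.64%. A match is a description of letters and not a site. Windows with the ETS core belonged to members with higher and with lower values, and 4 are printed to show this, Chchd5 and Timm10 with positive and Timm23 and Timm8a2 with negative log2 fold changes by TMM (all 4 are positive with oocyte-list scaling). Each runs 5′ to 3′ on the strand of its gene, and capitals mark the ETS core or its reverse complement ACTTCCGG. They lie at chr2:129129450-129129749 (plus strand, Chchd5), chr2:84826771-84827070 (plus strand, Timm10), chr14:32201842-32202141 (minus strand, Timm23), chr14:122034424-122034723 (plus strand, Timm8a2).
Chchd5: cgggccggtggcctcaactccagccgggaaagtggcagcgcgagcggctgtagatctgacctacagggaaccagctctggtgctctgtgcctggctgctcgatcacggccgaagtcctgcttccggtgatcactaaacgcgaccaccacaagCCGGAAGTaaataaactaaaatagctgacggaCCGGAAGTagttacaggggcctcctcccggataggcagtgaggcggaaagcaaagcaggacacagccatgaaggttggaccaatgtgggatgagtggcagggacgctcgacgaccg
Timm10: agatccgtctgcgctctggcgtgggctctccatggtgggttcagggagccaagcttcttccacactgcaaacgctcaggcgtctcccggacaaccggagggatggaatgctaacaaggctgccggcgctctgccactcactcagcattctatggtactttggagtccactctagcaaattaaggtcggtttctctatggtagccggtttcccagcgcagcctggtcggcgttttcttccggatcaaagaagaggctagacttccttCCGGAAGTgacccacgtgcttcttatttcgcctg
Timm23: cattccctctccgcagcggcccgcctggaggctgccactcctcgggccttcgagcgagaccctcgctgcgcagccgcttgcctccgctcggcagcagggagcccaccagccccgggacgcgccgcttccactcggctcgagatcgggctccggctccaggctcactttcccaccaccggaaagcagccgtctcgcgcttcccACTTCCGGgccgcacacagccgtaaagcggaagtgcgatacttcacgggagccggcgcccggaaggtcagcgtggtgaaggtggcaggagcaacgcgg
Timm8a2: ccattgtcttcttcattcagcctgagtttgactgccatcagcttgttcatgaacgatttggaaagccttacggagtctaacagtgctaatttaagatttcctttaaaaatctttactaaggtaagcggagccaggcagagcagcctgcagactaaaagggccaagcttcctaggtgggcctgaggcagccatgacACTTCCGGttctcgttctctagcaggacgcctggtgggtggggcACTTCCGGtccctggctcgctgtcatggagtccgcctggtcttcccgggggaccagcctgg

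Other genes of the pathway, taken from a list of 27 import, processing and insertion genes outside the name rule, had a lower median than the members. In 13 of 27 every AMH library was above every control (against 26.9% of all genes) and in 2, Agk and Hspa9, it was below (against 23.3%), with a median log2 fold change of 0.68. edgeR called 0, and at an unadjusted p under 0.05 it had 12 higher and 1 lower (against 20.2% and 17.3% of all genes), the last being Agk. Dnlz, a zinc-finger helper of the motor chaperone, had 17.5, 15.8 and 9.32 CPM in AMH 1, 2 and 3, against 4.48, 3.12 and 6.08 CPM in controls 1, 2 and 3. Dnajc15, a J protein of the motor, had 39.5, 31.5 and 12.5 CPM in AMH 1, 2 and 3, against 11.97, 6.66 and 8.68 CPM in controls 1, 2 and 3, with AMH 3 just above control 1. Agk, a lipid kinase that is also a TIM22 subunit, and Hspa9, the mitochondrial Hsp70 of the import motor, are named after their values were seen. Hspa9 had 279.5, 324 and 346 CPM in AMH 1, 2 and 3, against 382, 381 and 391 CPM in controls 1, 2 and 3, with AMH 1 lowest.

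For 6 further MICOS genes the median was 0.42, and every AMH library was above every control for 4 of them, 2410015M20Rik, Immt, Apool and Minos1 (against 26.9% of all genes), and below for 0 (against 23.3%). edgeR called 0 of them, and at an unadjusted p under 0.05 it had 1 higher and 0 lower (against 20.2% and 17.3% of all genes). 2410015M20Rik, listed by RefSeq as Micos13, had 23.02, 19.6 and 17.7 CPM in AMH 1, 2 and 3, against 8.11, 2.43 and 9.37 CPM in controls 1, 2 and 3. Immt, the core subunit, had 81.4, 88.3 and 62.5 CPM in AMH 1, 2 and 3, against 49.5, 61.9 and 57.95 CPM in controls 1, 2 and 3, with AMH 3 just above control 2. For 17 other small intermembrane-space proteins that share the cysteine fold or the Chchd4 route the median was 1.16. In 11 every AMH library was above every control (against 26.9% of all genes), in 0 below (against 23.3%), and edgeR called 0. At an unadjusted p under 0.05 it had 11 higher and 1 lower (against 20.2% and 17.3%), the last being Cox6b2, named after its values were seen. Cox6b1, a subunit of cytochrome c oxidase, had 92.6, 80.4 and 63.3 CPM in AMH 1, 2 and 3, against 30.6, 18.1 and 35.1 CPM in controls 1, 2 and 3. Ndufs5, a complex I subunit, had 42.5, 36.7 and 33.9 CPM in AMH 1, 2 and 3, against 17.2, 13.7 and 20.7 CPM in controls 1, 2 and 3, and for both genes the groups were well apart.

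The 33 members lie on 17 chromosomes, and Timm9 and Tomm20l, on opposite strands, share 49 exonic bases. Coding length of the tested members ranged from 165 to 1833 bases, with a median of 435 bases, and the longest coding transcript had 2 to 13 exons. Across the 31 tested members Spearman's rho between log2 fold change and length was 0.10 for the authors' gene length and -0.08 for coding length, and it was -0.04 for the number of exons, given as descriptions over genes that share libraries.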

How the data were processed

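Polyadenylated RNA of mouse oocytes, amplified with a SMART v4 kit per the labels' protocols, was sequenced in 3 AMH and 3 control libraries. The authors deposited raw whole-number counts for each Ensembl gene and FPKM values, which divide each count by gene length and 1 effective library size. Per the submitters' processing notes, which give no role or order, the builds were GRCm38 and mm10 and the tools DESeq2 1.20.0, featureCounts 1.5.0-p3 and HISAT2 2.0.5. How counting treated strand is not given in the sources used here, so overlapping genes may share reads. Coordinates are those of the deposited table, exon overlaps and coding lengths are from GENCODE M21 (GRCm38), and promoters from RefSeq GRCm38.p6.

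Counts were tested over all 18868 genes that passed filterByExpr with edgeR 4.0.16 (R 4.3.3, quasi-likelihood, robust, TMM, group alone, Benjamini-Hochberg at 0.05). CPM values are on TMM-scaled library sizes, and SE is log2 fold change over the root of F. Alternatives were DESeq2 1.42.0, limma-voom and limma on log2(FPKM + 1) (limma 3.58.1), 3 other scalings, 2 other filters, the replicate number as a block, a cumulus marker covariate and libraries left out. The test was also run on simulated counts with the same spread set for every gene. That run does not show how the test does at the spread of these libraries. Pairs of libraries differed by a chi-square of at least 55.9 per degree of freedom, so each counted once. The members, lists and alternatives were chosen with earlier results of these data known. Members were all described, with full statistics for the 3 of smallest p, the 3 largest fold changes at 5 CPM or more, the highest and lowest by FPKM (Tomm6, the lowest, has counts only) and every negative fold change, and of each pathway list the 2 genes of smallest p were named. A symbol entered in the MICOS list in error was left out, and symbols not in the table were skipped. Protein sequences were not used here.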

Additional observations from a re-analysis of the deposited data

How the results depend on the processing

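With each other scaling and filter and with the cumulus covariate edgeR called 0 genes, 0 members and 0 import partners, as did limma-voom and limma on FPKM. DESeq2 called 4535 genes, 18 members and 10 import partners. Leaving out 1 library gave 0 to 7513 genes, 0 to 21 members and 0 to 14 partners, and leaving out AMH 3 and control 3 together gave 9885, 23 and 17. Without AMH 3 the counts were 1607, 3 and 3, and without control 3 they were 7513, 21 and 14. The median log2 fold change of the members was 1.22 and stayed positive in every alternative run. It was 1.98 with oocyte-list scaling and 0.51 with the cumulus covariate. With libraries left out it ran from 0.95 without control 2 to 1.60 without control 3, and 1.76 without AMH 3 and control 3. The count of members with all AMH libraries above all controls was 20 to 25 over 7 alternatives chosen after seeing the data. Over the same 7 the share of all genes above ran from 23.7% with upper-quartile scaling to 43.5% without AMH 3 and control 3. The count of members below was 3 with TMM and all libraries, 0 with library size and with oocyte-list scaling, and 2 on deposited FPKM. It was 4 with upper-quartile scaling, 4 without AMH 3, 5 without control 3 and 6 without AMH 3 and control 3. The share of all genes below ran from 0.721% with oocyte-list scaling to 42.9% without AMH 3 and control 3, and was 12.9% with library size. The counts of members are therefore to be read against these shares.

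The sign turned for 7 members. With oocyte-list scaling the log2 fold changes of Timm21, Timm23, Timm8a2, Timm8b, Timm9 and Tomm34 became 0.54, 0.17, 0.17, 0.74, 0.47 and 0.21. With library size only Timm21 had 0.071 and Timm8b 0.23, and with the covariate Timm8b had 0.27 and Timm9 0.19. Chchd6 had -0.18 with upper-quartile scaling and -0.11 to 0.21 over libraries left out, and Timm8b had -0.21 to 0.041 over the same. The cause of these changes was not tested.

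Deviations of same-numbered libraries from their group means correlated by 0.07, -0.08 and -0.21. Those of differently numbered libraries correlated by -0.27 to 0.27. With 3 libraries in each group these values cannot settle whether replicate numbers pair the libraries. With the number as a replicate block edgeR called 0 genes and 0 members, at a median of 1.33. Depth limits the members of lowest count most, down to 20 counts in a library among those tested, and Tomm6 and Tomm20l could not be tested.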

Other observations

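A pseudogene of Chchd2, Chchd2-ps, which the rule leaves out, had 82, 98 and 46 counts in AMH 1, 2 and 3, against 32, 5 and 34 counts in controls 1, 2 and 3. Reads of the parent gene and of such a copy can be confused.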
